A study of Mus musculus with 3 samples.

Results

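Polycomb and DNA methylation enzymes were followed in the mesenteric lymph node of the mouse, the node that drains the intestine, by droplet single-cell RNA sequencing. The set holds 9 of the 32285 genes measured: Ezh2, Ezh1, Eed and Suz12 of Polycomb repressive complex 2 (PRC2), Dnmt1, Dnmt3a and Uhrf1 of DNA methylation, and Tet2 and Tet3 of its removal. The genes were chosen on measured values of these libraries, because Ezh2 was lower in several cell classes, so every difference by feeding below is a description with no test. Over 4 weeks of oral feeding the animals took citrate buffer (5 mM), free ovalbumin (free OVA, 1 µg of a model food antigen) or the same 1 µg of ovalbumin carried by lyso-phosphatidylserine nanoparticles (LysoPS-OVA). Each group was 1 library made from the pooled nodes of 6 animals, and dead cells were removed before loading. No genotype, strain, age or sex was found in the labels.

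Polycomb proteins keep genes silent in a heritable way. PRC2 places methyl groups on lysine 27 of histone H3: Ezh2 and Ezh1 are its alternative catalytic subunits, and Eed and Suz12 are core subunits that either enzyme needs. DNA methylation is copied onto the new strand at replication by Dnmt1, which Uhrf1 guides to half-methylated sites, while Dnmt3a adds methyl groups anew and Tet2 and Tet3 oxidise them as a step towards removal. In lymphocytes Ezh2 is known for its high level in germinal centre B cells and in dividing T cells, and Ezh1 for its presence in cells that do not divide.

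Promoter letters are shown first because the main contrast below is between cycling and resting cells, and E2F factors and the CHR element are textbook regulators of cell cycle genes. The RefSeq windows of GRCm38.p6 run from 250 bases before to 50 after each annotated start, and all 9 members matched, with 14 windows in all. The E2F letters TTTCCCGC, TTTCGCGC, TTTGGCGC and TTTGCCGC were searched on both strands, and so were the CHR letters TTTGAA. None of these runs overlapped another in the members' windows. An E2F run was present in windows of 4 members, Ezh2, Dnmt1, Suz12 and Uhrf1, beside 2.26% of all 32851 windows. TTTGAA was present in windows of 3 members (Eed, Dnmt1 and Suz12), beside 17.9% of windows. The members are counted as genes, with 14 windows among the 9, and the shares are of windows, so these are unlike measures. Short stretches around these runs are printed 5′ to 3′ on the gene's strand, with the E2F letters in capitals; in Dnmt1 the capitals are the reverse complement of TTTCGCGC.
Ezh2 (chr6:47595011-47595049, minus strand, GRCm38.p6): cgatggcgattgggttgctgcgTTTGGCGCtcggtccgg
Dnmt1 (chr9:20952813-20952864, minus strand, GRCm38.p6): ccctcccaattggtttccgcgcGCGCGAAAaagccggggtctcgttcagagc
Suz12 (chr11:79992865-79992916, plus strand, GRCm38.p6): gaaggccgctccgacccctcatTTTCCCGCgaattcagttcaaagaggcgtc
Uhrf1 (chr17:56304106-56304157, plus strand, GRCm38.p6): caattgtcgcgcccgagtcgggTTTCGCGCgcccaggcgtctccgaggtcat
The run begins at base 4 after the start in Ezh2, and at base -219 in Dnmt1 and Suz12 and -185 in Uhrf1, before it. The Dnmt1 stretch belongs to 1 of 3 annotated starts, and the same window held TTTGGCGC again at base 34. A match of letters is a description of the window and not of a bound site. The windows of Ezh1, Dnmt3a, Tet2 and Tet3 held neither kind of run.

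The citrate buffer, free OVA and LysoPS-OVA libraries held 96616683, 81559237 and 84089686 unique molecular identifiers (UMIs, counted RNA molecules), and 21871, 21949 and 16025 barcodes were kept after filters on detected genes, mitochondrial share and doublets. Per the sample records 10000 cells were loaded for each library, fewer than the barcodes kept, so barcodes are counted here and not cells. The labels name the cell type as intestinal cells, but the epithelial markers Epcam, Vil1 and Lgr5 were each at or under 5.71 CPM (UMIs of a gene scaled to a total of 1e6) in every library, while the leukocyte gene Ptprc was at 1314 to 1801 CPM. Between 166 and 194 barcode sequences were shared by each pair of libraries. Barcodes were placed in a B, a T or a dendritic gate by marker UMIs, and each gate was split by 22 replication and mitosis genes, none of which is a member. Resting barcodes showed none of the 22, and cycling barcodes showed at least 3, Mki67 or Top2a among them. Resting sums rest on 2387, 3106 and 3801 barcodes in the B gate (citrate buffer, free OVA and LysoPS-OVA, an order kept throughout), 3323, 2311 and 3606 in the T gate and 521, 1386 and 452 in the dendritic gate. Cycling sums rest on 390, 234 and 141 B barcodes and on 384, 107 and 61 T barcodes, so the free OVA and LysoPS-OVA cycling T values are the least precise. The cycling dendritic gate held 24, 24 and 5 barcodes, too few for a test. Barcodes of a gate that were neither resting nor cycling by these rules were left out. They numbered 2332, 1845 and 2057 in the B, 3125, 1267 and 2063 in the T and 298, 275 and 96 in the dendritic gate. Together the 6 resting and cycling gates held 22263 of the 59845 kept barcodes.

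Ezh2, the catalytic subunit tied to dividing cells, had the largest difference between the states among the 4 PRC2 members. Its level in the resting B gate was 56.1, 21.6 and 18.6 CPM, and in the cycling B gate it was 238.6, 233.1 and 212.8 CPM. Resting T barcodes gave 69.7, 35.9 and 29.0 CPM and cycling ones 269.5, 163.9 and 200.8 CPM. No resting lymphocyte sum reached a cycling one. Resting dendritic barcodes held 98.6, 88.0 and 102.7 CPM, above every resting B and T sum and below every cycling B and T sum, and their 3 libraries overlapped within counting error. The few cycling dendritic barcodes gave 275.2, 154.6 and 236.7 CPM, with a 95% Poisson interval of 76.9 to 552.5 CPM for the last.

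**Figure D1:**
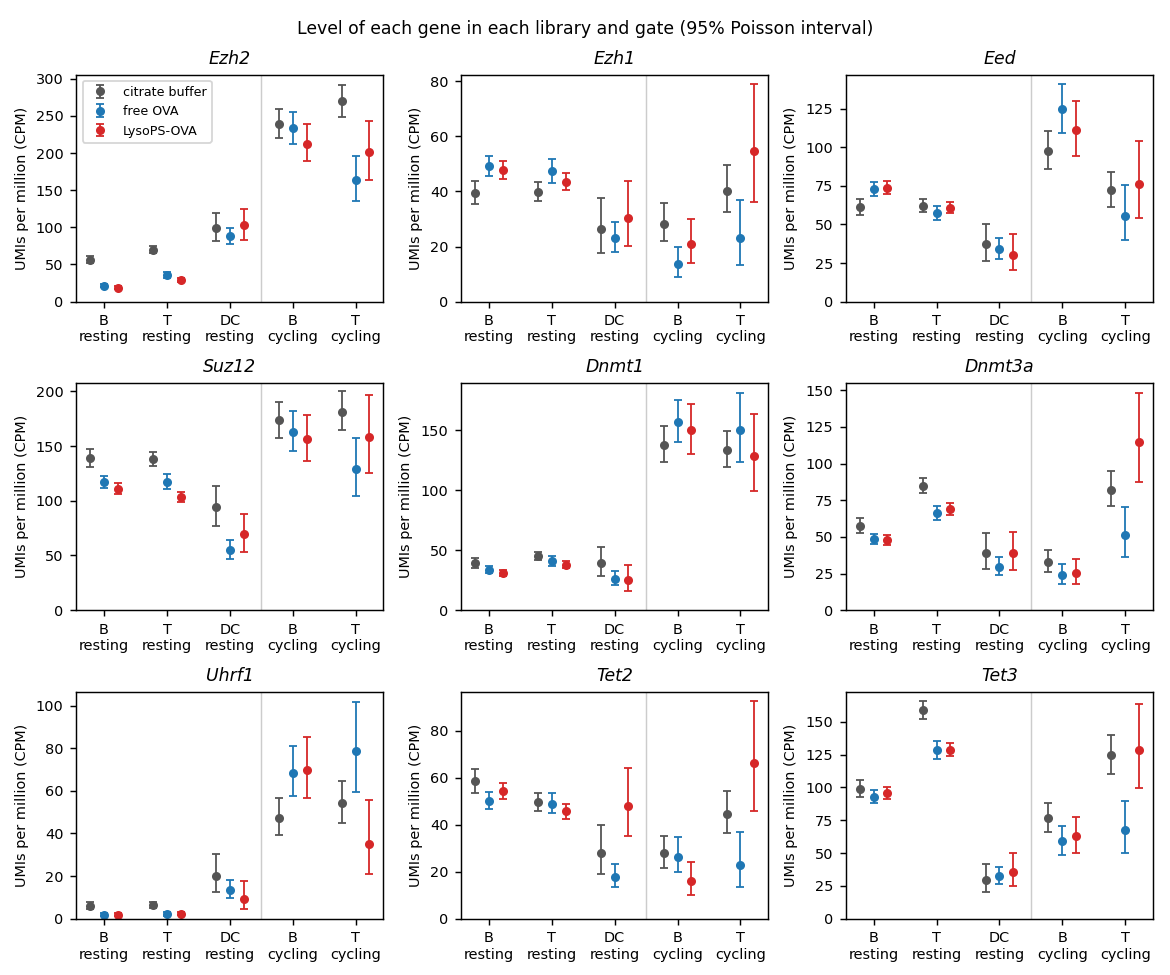
Level of each of the 9 genes in CPM (y axis, starting at 0) in 5 gates (x axis), with 1 point per library and its exact 95% Poisson interval, which covers counting error only. Ezh2, Dnmt1 and Uhrf1 stand higher in both cycling gates than in the resting B and T gates in all 3 libraries, and the citrate buffer library stands above the others for Ezh2 in the resting B and T gates.

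Between cycling and resting B barcodes, all 9 members passed the test, in both directions. The comparison used edgeR's quasi-likelihood test on summed UMIs over the 3 libraries with the library as a block, with Benjamini-Hochberg adjustment over 11486 genes. Ezh2 rose by 3.18 ± 0.19 on the log2 scale (SE, adjusted p = 8.0e-11), Uhrf1 by 4.67 ± 0.31 (adjusted p = 2.4e-10) and Dnmt1 by 2.30 ± 0.12 (adjusted p = 7.3e-12). The core subunits moved less: Eed rose by 0.88 ± 0.11 and Suz12 by 0.63 ± 0.10. Tet2 fell by 0.98 ± 0.16, Ezh1 by 0.89 ± 0.19, Dnmt3a by 0.71 ± 0.14 and Tet3 by 0.34 ± 0.12 (adjusted p = 0.0196). The 5 that rose compare with 29.5% of all genes tested that rose, and the 4 that fell with 25.3% that fell, so most genes of the table differed between these states. Uhrf1 was below 10 CPM in every resting lymphocyte sum and entered the test through its cycling level, so its call adds nothing to that count. The call of Tet3 was lost with DESeq2 (adjusted p = 0.068), without the free OVA (0.115) or LysoPS-OVA library (0.133) and in barcodes with at least 10% ribosomal and 0.5% Malat1 UMIs (0.777), where that of Dnmt3a was lost as well (0.0888).

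The levels behind these folds were alike across libraries for some genes and not for others. Dnmt1, the maintenance methyltransferase, was at 39.0, 33.8 and 31.0 CPM in resting and 137.9, 156.9 and 150.0 CPM in cycling B barcodes. Its partner Uhrf1 was at 5.86, 1.67 and 1.76 CPM in resting and 47.3, 68.6 and 70.0 CPM in cycling ones. Both genes were lower in every resting sum than in any cycling sum. Ezh1, the other catalytic subunit, ran the opposite way, at 39.5, 49.2 and 47.8 CPM in resting and 28.3, 13.7 and 20.9 CPM in cycling B barcodes, again without overlap. Tet2 was at 58.5, 50.1 and 54.3 CPM in resting and at 27.9, 26.4 and 15.9 CPM in cycling B barcodes, and Dnmt3a was at 57.7, 48.6 and 47.6 against 32.8, 23.9 and 25.2 CPM. Within single libraries the ratio of cycling to resting CPM was 4.25, 10.8 and 11.5 for Ezh2 and 8.07, 41.1 and 39.8 for Uhrf1. The cycling levels of Ezh2 lay close together there, and its resting levels did not.

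In the T gate the rise was limited to 3 members by the same test. Ezh2 rose by 2.31 ± 0.17 on the log2 scale (edgeR with Benjamini-Hochberg adjustment over 11718 genes, adjusted p = 4.8e-12), Uhrf1 by 3.92 ± 0.29 (1.3e-11) and Dnmt1 by 1.77 ± 0.16 (7.8e-10). The background was 14.5% of genes higher and 7.01% lower, and no member was called lower. Without the citrate buffer library the calls over all genes fell from 2519 to 1000, and Ezh2, Uhrf1 and Dnmt1 were called in every alternative run. Suz12 (0.41 ± 0.16, adjusted p = 0.060) and Tet3 (-0.37 ± 0.17, adjusted p = 0.119) missed the threshold. Suz12 passed it by edgeR with doublets kept (adjusted p = 0.0298) or without barcodes that held haemoglobin (0.032), and Tet3 without the LysoPS-OVA library (-0.46, 0.0487). Ezh1 (-0.11 ± 0.20), Eed (0.21 ± 0.17), Dnmt3a (0.15 ± 0.18) and Tet2 (-0.13 ± 0.20) missed the threshold as well. Whether the cycling difference of Ezh1, Dnmt3a or Tet2 differed between B and T barcodes was not tested. In cycling T barcodes Tet2 stood at 44.7, 23.0 and 66.3 CPM and Dnmt3a at 82.3, 51.5 and 115.0 CPM, libraries that lie far apart, against 49.6, 49.0 and 45.7 and 84.7, 66.1 and 68.9 CPM in resting ones. Cycling barcodes differed from resting ones in more than the cell cycle. Depth was one: a median of 4924, 6078 and 7536 UMIs per cycling B barcode against 3503, 4917 and 4220 per resting one. Plasma cell markers (Jchain, Xbp1, Sdc1, all 3 detected) summed to 898.6 CPM in cycling and 60.1 CPM in resting B barcodes of citrate buffer, and to 3054 and 188.5 CPM in free OVA. Malat1 was under 0.5% of UMIs in 56.7%, 68.4% and 60.3% of cycling B barcodes against 8.59%, 17.4% and 4.05% of resting ones, and in 41.9%, 65.4% and 31.2% of cycling T barcodes against 7.28%, 29.7% and 5.91%. Haemoglobin summed to 1561, 11120 and 7.94 CPM in cycling and 113.6, 1097 and 23.1 CPM in resting B barcodes. The part of depth, plasma cell markers, Malat1 share and haemoglobin in the differences was not tested.

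**Figure D2:**
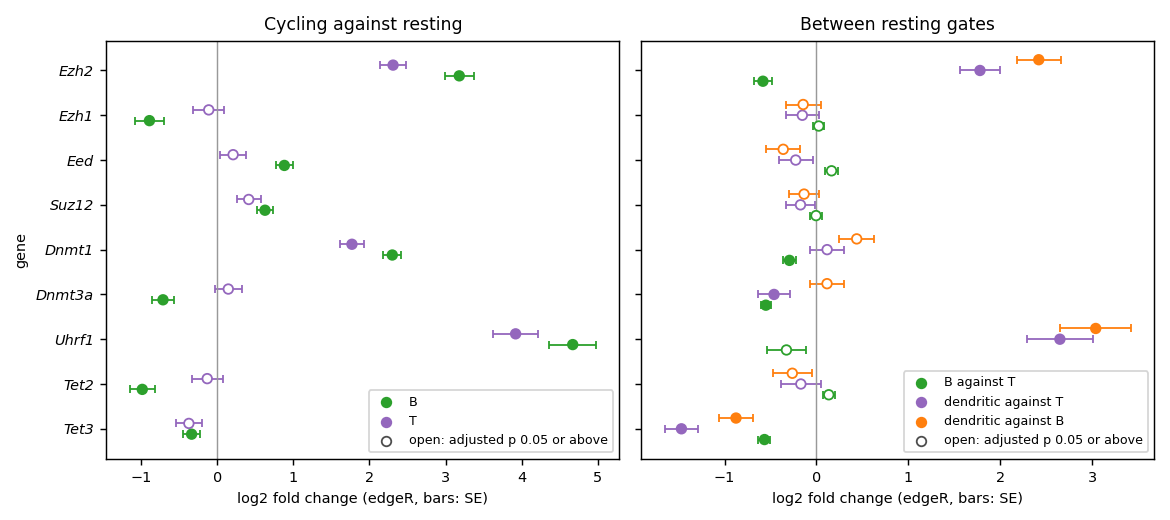
Log2 fold changes from edgeR with their standard errors (x axis) for the 9 genes (y axis), cycling against resting on the left and between resting gates on the right, over 3 libraries. Filled points passed an adjusted p of 0.05; Ezh2, Dnmt1 and Uhrf1 are filled and to the right of 0 in both cycling comparisons, and Tet3 is filled and to the left in all 3 comparisons of resting gates.

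Among resting lymphocytes, 4 of the 9 members were lower in B than in T barcodes and none was higher, where 29.0% of genes were lower and 27.1% higher. Ezh2 fell by 0.58 ± 0.10, Tet3 by 0.57 ± 0.07, Dnmt3a by 0.55 ± 0.06 and Dnmt1 by 0.29 ± 0.07 on the log2 scale in B against T barcodes (edgeR with Benjamini-Hochberg adjustment, adjusted p = 8.8e-04, 7.8e-05, 3.8e-05 and 0.00572). Without the library block Ezh2 lost its call (adjusted p = 0.324), and Dnmt1 lost its own with DESeq2 (0.0789) and without LysoPS-OVA (0.0746). Tet3 showed this in every library, at 98.8, 92.6 and 95.8 CPM in B and 158.6, 128.5 and 128.8 CPM in T barcodes, without overlap. Dnmt3a did as well, at 57.7, 48.6 and 47.6 CPM against 84.7, 66.1 and 68.9 CPM. Suz12 (138.9, 116.9 and 110.8 against 138.3, 117.4 and 103.3 CPM) and Ezh1 had overlapping levels in the resting B and T gates, with fold changes of -0.005 ± 0.061 and 0.03 ± 0.06.

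Resting dendritic barcodes stood apart by high Ezh2 and Uhrf1 and low Tet3. Ezh2 was higher by 2.42 ± 0.24 on the log2 scale than in resting B barcodes (edgeR with Benjamini-Hochberg adjustment, adjusted p = 1.4e-08) and by 1.78 ± 0.21 than in resting T barcodes (3.0e-06). Uhrf1, at 19.9, 13.4 and 9.44 CPM, was higher by 3.04 ± 0.39 and 2.65 ± 0.36. Tet3, at 29.8, 32.6 and 35.6 CPM, was lower by -0.88 ± 0.19 against B and by -1.47 ± 0.18 against T barcodes. Dnmt3a was called lower against T alone (-0.46 ± 0.17, adjusted p = 0.0312), at 38.9, 29.4 and 38.8 CPM, and Dnmt1 missed the threshold against B (0.44 ± 0.19, adjusted p = 0.0507). Thus 2 members rose and 1 fell against B, where 29.9% of genes rose and 31.4% fell, and 2 rose and 2 fell against T, with 28.8% and 31.3%. Scaling matters here. With the summed UMIs in place of the TMM factors, the median over all genes moved from -0.15 to -0.83 against B and from -0.16 to -0.76 against T. The split then became 2128 genes higher and 6135 lower against B (3534 and 3723 with TMM) and 2219 and 5935 against T (3455 and 3756), and Dnmt1 turned lower in both comparisons and Dnmt3a against B. Ezh1, Eed, Suz12 and Tet2 were then called lower too, so of the members the calls of Ezh2 and Uhrf1 as higher and of Tet3 as lower in both comparisons, and of Dnmt3a as lower against T, are those that both scalings share. In cycling against resting B barcodes the same change gave 2762 higher and 4018 lower (3391 and 2902 with TMM), with a median of -0.23 in place of -0.03. The dendritic barcodes also held little nuclear Malat1 RNA: 86.0% to 90.4% of them had under 0.5% of their UMIs from it, against 4.05% to 17.4% in resting B barcodes, and their median depth was 1630 to 1897 UMIs. In the 57, 115 and 34 resting dendritic barcodes with at least that Malat1 share and at least 10% ribosomal UMIs, Ezh2 was at 134.2, 108.7 and 70.1 CPM, above the resting B and T level of the same library each time, with an interval of 33.6 to 128.8 CPM in LysoPS-OVA. In these barcodes Tet3 against B (adjusted p = 0.394 by edgeR) and Dnmt3a against T (0.972) lost their calls. Dnmt3a also lost it with DESeq2 (0.118), with doublets kept (0.0759) and without citrate buffer (0.148) or free OVA (0.0594).

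Other genes of the pathway were read from lists whose named members follow the smallest adjusted p. Of the 8 accessory PRC2 genes, 4 rose and 3 fell in cycling against resting B barcodes, with a median of 0.48 beside -0.03 over all genes (edgeR with Benjamini-Hochberg adjustment). Of all genes 29.5% rose and 25.3% fell in that comparison, and 14.5% rose and 7.01% fell in the T gate, and each list below is to be read against these shares. The risers were the histone-binding Rbbp7 (1.79 ± 0.11) and Rbbp4 (1.10 ± 0.10), and the Polycomb-like chromatin readers Mtf2 (1.56 ± 0.11) and Phf19 (3.65 ± 0.31). In the T gate 3 rose, Rbbp7 (1.10 ± 0.16), Rbbp4 (0.86 ± 0.16) and Phf19 (2.93 ± 0.69), and 3 fell, among them Phf1 (-1.04 ± 0.25). Phf19 was at 2.48, 1.94 and 1.23 CPM in resting B and 1.32, 0.289 and 0.332 CPM in resting T barcodes. It entered both tests through its cycling level, with 12, 5 and 2 UMIs in cycling T barcodes. Its calls followed from the filter on low counts and add nothing to these counts. Among 17 of 19 genes of Polycomb repressive complex 1, the complex that ubiquitinates histone H2A, 4 rose and 7 fell in the B gate, with a median of -0.20. The chromodomain genes parted there: Cbx7 fell by 1.44 ± 0.30 and Cbx8 rose by 1.27 ± 0.34. In the T gate none of 18 rose, and Pcgf5 (-0.63 ± 0.18) was among those that fell. The histone H3K27 demethylases Kdm6a and Kdm6b, which oppose PRC2, fell in the B gate by 0.38 ± 0.11 and 0.56 ± 0.17 and missed the threshold in the T gate.

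Of the DNA methylation genes outside the 9, 8 of 11 tested rose and 2 fell in cycling B barcodes, with a median of 1.12, and 4 of 12 rose and 1 fell in cycling T barcodes, with a median of 0.35, beside the same shares of all genes as above. Hells, a remodeller needed for DNA methylation, rose by 3.28 ± 0.16 in the B and 3.13 ± 0.20 in the T gate, and Mbd4, a glycosylase that repairs deaminated methyl-cytosine, by 1.89 ± 0.11 and 1.13 ± 0.26. Between resting gates the third Tet gene, Tet1, was lower in B than in T barcodes (-2.86 ± 0.22). A comparison list of 15 other histone H3 methylation enzymes gave 5 higher and 4 lower in cycling B barcodes and 2 higher and none lower in cycling T barcodes. Nsd2, which methylates lysine 36 of histone H3 (1.72 ± 0.12 and 2.14 ± 0.17), and Suv39h1, which methylates lysine 9 (1.72 ± 0.19 and 1.16 ± 0.27), rose in both gates.

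Genes that Polycomb is known to hold back in lymphocytes formed a list of 11, and few were expressed enough to test. Beside 29.5% of all genes, 3 of 5 tested rose in cycling B barcodes, Prdm1 (3.27 ± 0.32), the regulator of plasma cell fate, Tbx21 (1.06 ± 0.34) and the cyclin-dependent kinase inhibitor Cdkn1a (1.56 ± 0.50). Cdkn1a, at 1.58, 1.47 and 1.35 CPM in resting B barcodes and 5, 8 and 8 UMIs in cycling ones, entered this test through its cycling level. Its call followed from the filter on low counts, so the count of risers is not read against that share. Beside 14.5% of all genes, 5 of 8 rose in cycling T barcodes, among them the T cell regulators Irf4 (1.19 ± 0.24) and Eomes (1.41 ± 0.32) and the cytokine Il10 (2.20 ± 0.52). Il10 was at 1.16, 1.25 and 3.21 CPM in resting T barcodes, with 7, 3 and 13 UMIs in cycling ones. It entered this test through its cycling level, and so did Cdkn2a, also among the 5, with 5, 4 and 7 UMIs in cycling T barcodes. Their calls followed from the filter, so this count is not read against the share either. Cdkn2a, the inhibitor locus often used as a Polycomb target, had 5, 15 and 13 UMIs in resting B barcodes and 38, 175 and 44 UMIs in resting dendritic barcodes. Its fold change was 6.53 ± 0.27 against B and 6.72 ± 0.35 against T, and Cdkn1a gave 6.16 ± 0.24 and 6.29 ± 0.23. Both inhibitors entered these tests through their dendritic level, so their calls followed from the filter on low counts and are given as values only. Gadd45b, a stress-induced gene linked to DNA demethylation, was also higher there, by 6.24 ± 0.22 and 6.50 ± 0.23. Pcgf5 (2.87 ± 0.19 and 1.19 ± 0.18) and Aebp2 (2.40 ± 0.18 and 0.90 ± 0.16) led the Polycomb genes outside the set that were named against B. In CPM, Aebp2 was at 139.3, 148.1 and 177.2 in resting dendritic against 121.9, 118.5 and 131.2 in resting T barcodes. Pcgf5 was at 176.3, 157.7 and 353.3 CPM against 141.3, 132.4 and 148.2 CPM. Their fold changes against T thus rest in part on the TMM scaling, and that of Pcgf5 most on LysoPS-OVA.

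By feeding, Ezh2 was lower in both antigen-fed libraries than in citrate buffer in the resting B and T gates. These 3 pairwise comparisons share their libraries, and each ratio is between 1 library and another, with a conditional binomial 95% interval for counting error only. The resting B ratio was 0.331 (0.286 to 0.381) for LysoPS-OVA against citrate buffer and 0.385 (0.334 to 0.444) for free OVA against citrate buffer. In resting T barcodes the ratios were 0.416 (0.373 to 0.464) and 0.515 (0.455 to 0.582). LysoPS-OVA against free OVA gave 0.858 (0.733 to 1.005) in B and 0.807 (0.705 to 0.924) in T barcodes, so the citrate buffer library was the one that stood apart. In resting B barcodes 0.27% of genes, and in resting T barcodes 0.54%, had a ratio of LysoPS-OVA to citrate buffer that was as low or lower. The set was chosen because Ezh2 was lower in these data, so a low rank followed from the choice and nothing is read from it. Resting dendritic barcodes gave 1.04 (0.785 to 1.38) for LysoPS-OVA and 0.893 (0.713 to 1.13) for free OVA against citrate buffer. Cycling B barcodes gave 0.892 (0.773 to 1.03) and 0.977, and cycling T barcodes 0.745 (0.599 to 0.920) and 0.608 (0.496 to 0.740).

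**Figure D3:**
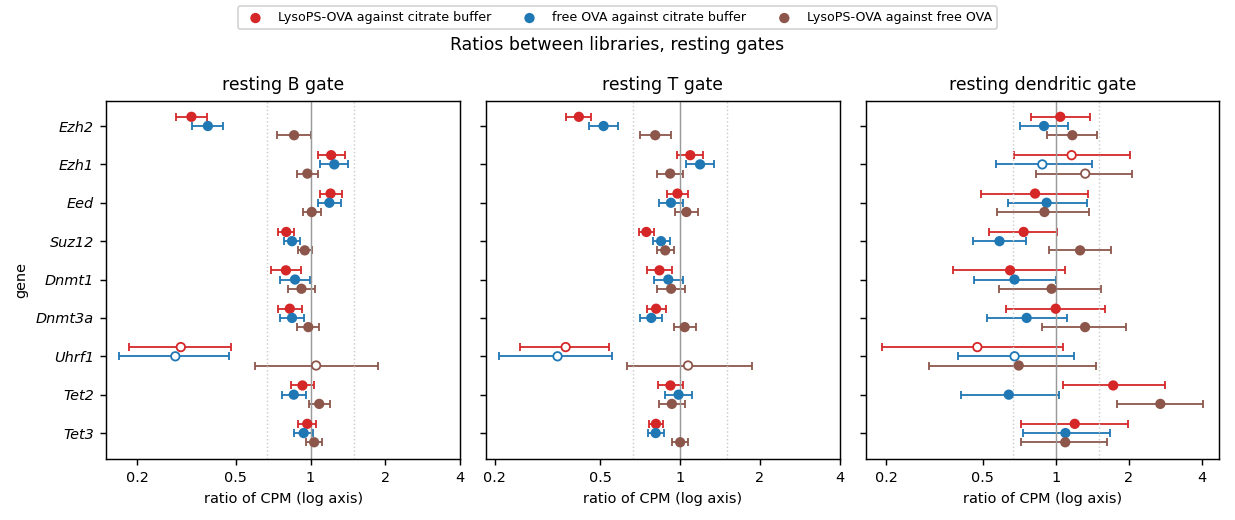
Ratios of CPM between libraries (x axis, log scale) for the 9 genes (y axis) in the 3 resting gates, with 95% conditional binomial intervals for counting error; dotted lines mark 1.5-fold and open points are genes under the count minimum. Ezh2 lies left of the dotted line for both antigen-fed libraries against citrate buffer in the B and T gates, and near 1 in the dendritic gate.

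A ratio past 1.5-fold either way, in a gene with at least 30 UMIs and 10 CPM in the higher library, is the size used for counts. For LysoPS-OVA against citrate buffer, 1 of 8 members that passed this minimum was past it in resting B and 1 of 8 in resting T barcodes, Ezh2 each time, where 4.91% and 5.00% of genes were; nothing is read from these, since this contrast chose the set. In resting dendritic barcodes Tet2 was higher (1.72, 1.07 to 2.81) and Dnmt1 lower (0.647, 0.376 to 1.09), where 20.5% of genes were past it. The Tet2 ratio turned to 0.962 after thinning to 1500 UMIs and to 0.911 in barcodes with Y-linked UMIs only. Tet2 in cycling B (0.569, 0.335 to 0.931) and Uhrf1 in cycling T barcodes (0.649, 0.372 to 1.07) were lower, beside 11.6% and 23.6%. For free OVA against citrate buffer the background was 5.11% and 4.52% in resting B and T barcodes, with Ezh2 the 1 member past it in each. It was 28.6% in resting dendritic barcodes, where Suz12 (0.585, 0.456 to 0.754) and Tet2 (0.639, 0.405 to 1.03) were lower. In cycling B and T barcodes it was 13.2% and 32.9%, where 1 (Ezh1, 0.484, 0.299 to 0.765) and 5 members were lower. For LysoPS-OVA against free OVA no member was past it in resting B and T barcodes, beside 1.67% and 1.53% of genes. Tet2 was higher in resting dendritic barcodes (2.69, 1.78 to 4.05), beside 27.1%. In cycling B barcodes, beside 11.3%, Tet2 was lower (0.601, 0.348 to 1.007). In cycling T barcodes, beside 39.0%, Tet2 (2.88, 1.565 to 5.496), Dnmt3a (2.23, 1.46 to 3.45) and Tet3 (1.90, 1.30 to 2.80) were higher. Uhrf1 was lower there (0.447, 0.248 to 0.769). With backgrounds this high in the dendritic and cycling T gates, no count of members there is read as particular to the set.

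Of the other members, Uhrf1 had ratios as low as Ezh2 in resting lymphocytes, and the rest varied less. Suz12 was lower in both antigen-fed libraries, with ratios to citrate buffer of 0.798 and 0.842 in B (LysoPS-OVA, then free OVA) and 0.747 and 0.849 in T barcodes. Dnmt3a gave 0.825 and 0.842 in B and 0.813 and 0.780 in T barcodes, and Dnmt1 0.795 and 0.866, and 0.837 and 0.904. Ezh1 and Eed were above 1 in B barcodes, with 1.21 and 1.25 for Ezh1 and 1.20 and 1.19 for Eed. Uhrf1, below the count minimum at 1.67 to 6.42 CPM, gave 0.2996 (0.185 to 0.479) and 0.285 (0.169 to 0.467) in B and 0.371 (0.250 to 0.542) and 0.346 (0.208 to 0.554) in T barcodes. Tet2 and Tet3 lay between 0.810 and 0.988. Over all genes in resting T barcodes the median log2 ratio was -0.12 in both comparisons with citrate buffer, and in resting B barcodes -0.03 and -0.05.

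Pathway genes outside the set, named by the largest ratio of LysoPS-OVA to citrate buffer in resting gates, showed the citrate buffer library apart for some and not for others. Hells was at 25.1, 15.9 and 17.6 CPM in resting B and 21.98, 9.26 and 11.2 CPM in resting T barcodes, highest in citrate buffer each time. Tet1 was at 21.7, 12.2 and 9.52 CPM in resting T barcodes. Phf1, an accessory PRC2 subunit, was lowest there, at 19.3, 29.8 and 28.3 CPM in B and 23.2, 31.8 and 31.3 CPM in T barcodes. Ring1, which with Rnf2 is one of the alternative catalytic subunits of Polycomb repressive complex 1, was instead lowest in LysoPS-OVA, at 12.9, 13.6 and 8.72 CPM in B and 15.0, 13.5 and 8.47 CPM in T barcodes. None of the 15 comparison enzymes was past 1.5-fold in resting B or T barcodes in any of the 3 comparisons. Of all genes, 4.91%, 5.11% and 1.67% were past it in B and 5.00%, 4.52% and 1.53% in T barcodes. These are LysoPS-OVA and free OVA against citrate buffer, then LysoPS-OVA against free OVA. The 4 tested genes of the list of H3K27 demethylases and BAP1 had none past it either. With shares this low, nothing is read from these counts. Irf4, on the list of genes held back by Polycomb, was at 66.9, 66.3 and 88.8 CPM in resting B barcodes, and Cdkn1a and Cdkn2a had at most 23 UMIs in any resting B or T sum.

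Several other measures differed between the libraries, not all of them with citrate buffer apart. Cycling barcodes were most frequent in citrate buffer and least frequent in LysoPS-OVA. They made up 7.63%, 4.51% and 2.35% of B and 5.62%, 2.90% and 1.07% of T barcodes. After every barcode was thinned to 1500 UMIs, the shares were 3.77%, 2.64% and 1.06% of B and 2.27%, 1.42% and 0.288% of T barcodes. Removed doublets were 17.0%, 5.92% and 7.49% of the barcodes that had passed the other filters. Resting B barcodes of citrate buffer were the shallowest, with a median of 3503, 4917 and 4220 UMIs. Stmn1, a gene of dividing cells outside the gating list, had 107, 127 and 155 UMIs in resting B barcodes, or 12.1, 8.48 and 9.07 CPM. Xist, which marks female cells, was at 380.5, 200.8 and 137.6 CPM and 4 Y-linked genes at 206.9, 250.2 and 317.3 CPM in resting B barcodes, so markers of both sexes differed between the pools. Haemoglobin was at 1595, 57.5 and 8.69 CPM in resting T but at 113.6, 1097 and 23.1 CPM in resting B barcodes. The part of these measures in the Ezh2 difference was not tested.

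Ezh2 was also read in subsets of the same barcodes, chosen after seeing the data except for the subset by ribosomal and Malat1 share; these are descriptions of the same 3 libraries and no separate support. In resting B barcodes with Y-linked UMIs and no Xist it was at 48.0, 22.2 and 18.3 CPM, in those with Xist and no Y-linked UMI at 53.1, 19.6 and 25.5 CPM, and in those with no haemoglobin UMI at 55.6, 21.7 and 18.2 CPM. Those with at least 10% ribosomal UMIs and at least 0.5% Malat1 gave 51.7, 21.0 and 17.2 CPM. Resting T barcodes split the same way gave 69.1, 36.2 and 28.6, 68.4, 35.1 and 33.0, 69.3, 36.2 and 29.2, and 63.9, 33.7 and 27.4 CPM.

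**Figure D4:**
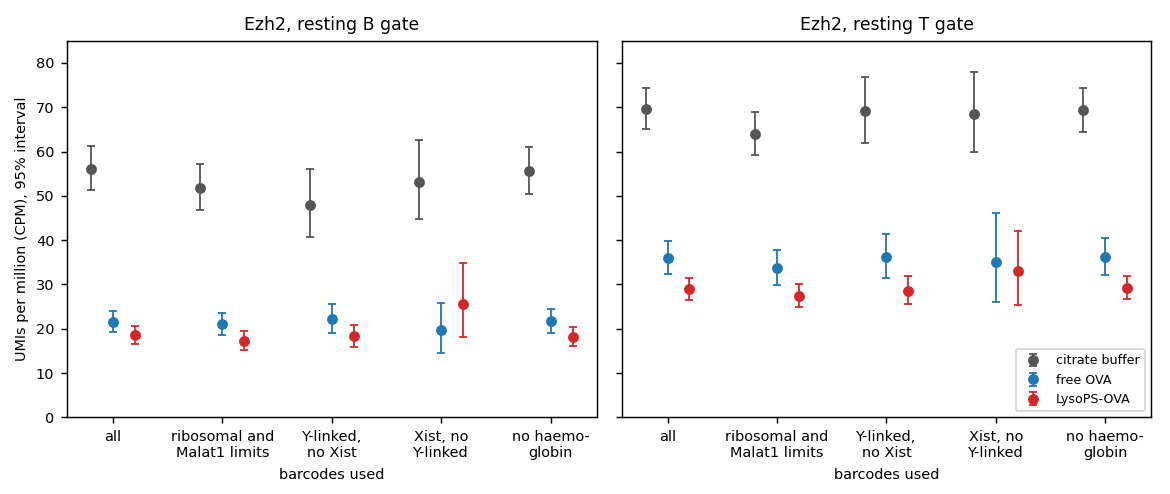
Ezh2 in CPM with exact 95% Poisson intervals (y axis, from 0) in resting B (left) and resting T barcodes (right), for all barcodes and for 4 subsets (x axis), with 1 point per library. The citrate buffer points, 48.0 to 56.1 CPM in B and 63.9 to 69.7 CPM in T barcodes, lie above the free OVA and LysoPS-OVA points in every subset.

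Across the 15 sums of library and gate (cycling dendritic left out), the members fell into patterns that are given as a description, since sums of a library share its depth and the gates share the cell cycle split. Pearson's r of log2(CPM + 10) was 0.930 between Ezh2 and Uhrf1, 0.907 between Dnmt1 and Uhrf1 and 0.815 between Ezh2 and Dnmt1. Ezh1 ran with Tet2 (0.859) and Dnmt3a (0.804), and against Uhrf1 (-0.649) and Ezh2 (-0.572). Of 6082 genes with a mean of at least 20 CPM, those most like Dnmt1 were Stmn1 (0.996), Incenp (0.995) and Lmnb1 (0.993). Ezh2 was most like Med8 (0.968), Tmem14c (0.961) and Psmd12 (0.960), and Tet2 most like Specc1l (0.947), Stam2 (0.938) and Sppl3 (0.926). The core subunits Eed and Suz12 were alike at 0.837, more than either was with Ezh2 (0.305 and 0.441) in these sums.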

How the data were processed

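The values are raw UMI counts per gene and barcode, deposited by the authors, who used Cell Ranger 7.2.0 and mm10 per the submitters' processing notes; the annotation and intron setting are not given in the sources used here. Barcodes needed 300 or more genes and no more than 10% mitochondrial UMIs. Scrublet (scanpy 1.11.5, expected rate 0.8% per 1000 barcodes) was run on each library, and its doublets, between 5.92% (free OVA) and 17.0% (citrate buffer) of the barcodes, were removed. A gate needed at least 3 UMIs over at least 2 genes of its list (4 B, 6 T or 10 dendritic genes) and 80% of its UMIs over the 3 lists. UMIs were summed per library and gate and scaled to CPM. Gates were compared over 3 libraries with edgeR 4.0.16 in R 4.3.3 (quasi-likelihood test, TMM, filterByExpr, library block, adjusted p under 0.05), after a test on simulated data. With 1 library per group, feeding has no replicate, no test and no p-value. Poisson and binomial intervals (95%) cover counting error only. Promoter windows came from RefSeq and were matched by symbol.

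The members and the gene lists were chosen with earlier results of these data known. Named genes were all members and up to 4 per list, those with the largest ratio of LysoPS-OVA to citrate buffer in resting gates or the smallest adjusted p. A few genes that this rule names are left out of the text. The planned cycling test of dendritic barcodes was not run, since no library reached 50 barcodes. Alternatives covered DESeq2 1.42.0, filters, scaling, pseudocount, gates, doublets, barcode subsets and each library left out.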

Additional observations from a re-analysis of the deposited data

Results flagged for a closer look

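Among members with at least 30 UMIs and 10 CPM in the higher library of both gates, 7 pairs of gates had a member above 1 in one gate and below 1 in the other under the same feeding comparison, with counting intervals that both excluded 1. Uhrf1 was below that minimum in the resting B and T gates in every comparison, and in the resting dendritic gate against citrate buffer. It was not counted there. These differences between gates were not tested, since each feeding group was 1 library. Dnmt3a in LysoPS-OVA against citrate buffer was 1.40 in cycling T barcodes (61 barcodes in LysoPS-OVA), against 0.825 in resting B and 0.813 in resting T barcodes. Tet2 in the same comparison was 1.72 in resting dendritic and 0.569 in cycling B barcodes. Ezh1 in free OVA against citrate buffer was 1.25 in resting B and 1.19 in resting T barcodes, against 0.484 in cycling B and 0.572 in cycling T barcodes, where its sums held 27 and 17 UMIs in free OVA.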

How the results depend on the processing

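The cycling T and cycling dendritic sums held the fewest barcodes. Calls in the T gate between cycling and resting barcodes (2519 in all) ran from 1000 without the citrate buffer library to 2879 without LysoPS-OVA; the cause was not tested. Barcodes limited by ribosomal and Malat1 share, which are fewer, gave 607 calls there, 3207 in the B gate (6293 in all) and 2371 and 2064 for dendritic against T and B barcodes (7211 and 7257). Scaling by summed UMIs and the subsets by Xist, Y-linked and haemoglobin UMIs were chosen after seeing the data.

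The Ezh2 ratio of LysoPS-OVA to citrate buffer became 0.432 in resting B and 0.489 in resting T barcodes with a pseudocount of 10 CPM, and 0.481 and 0.482 in barcodes with Xist UMIs only. In resting dendritic barcodes it was 0.522 in those limited by ribosomal and Malat1 share, 1.43 in a stricter gate, 1.425 with Y-linked UMIs only and 1.995 with Xist UMIs only. For free OVA against citrate buffer it was 0.478 with the pseudocount, 0.277 thinned and 0.462 with Y-linked UMIs in resting B, and 1.19 in the stricter gate and 0.627 with Xist UMIs in resting dendritic barcodes.

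Directions turned for small differences (log2). Suz12 in B against T barcodes became 0.0047 with DESeq2, 0.0286 with no filter, 0.00602 with doublets kept, 0.0341 with summed UMIs and 0.00819 without haemoglobin, and ran from -0.0145 to 0.0365 with a library left out; Ezh1 there became -0.0163 with doublets kept. In dendritic barcodes Dnmt1 became -0.0683, -0.64 and -0.48 against T (no filter, limited barcodes, summed UMIs) and -0.30 and -0.23 against B (limited barcodes, summed UMIs), Dnmt3a -0.10 and -0.545 against B (no filter, summed UMIs), and Tet2 ran from -0.53 to 0.0967 against T with a library left out. In cycling T barcodes, leaving out a library gave -0.335 to 0.104 for Tet2, -0.28 to 0.127 for Ezh1 and -0.0491 to 0.264 for Dnmt3a, and limited barcodes gave 0.166 and 0.195 for Tet2 and Ezh1.

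Ratios by feeding turned as follows. LysoPS-OVA against citrate buffer: Tet2 0.962 thinned and 0.911 with Y-linked UMIs in resting dendritic and 1.53 thinned in cycling B barcodes, Uhrf1 0.494 with Xist UMIs in cycling B. Free OVA against citrate buffer, with Xist UMIs: Dnmt1 1.004 in resting B, Uhrf1 1.26 in resting T, 0.973 in cycling B and 0.560 in cycling T, Suz12 1.018 in resting dendritic, Tet3 1.022 in cycling B. Thinned, Ezh1 was 1.02 and Uhrf1 0.804 in cycling B, and Suz12 in limited cycling T barcodes was 1.14.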
